A study of Homo sapiens with 24 samples.

Results

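The 10 genes of insulin-like growth factor (IGF) signalling considered here were measured in 4 human Ewing sarcoma cell lines after inhibition of splicing: the receptor genes IGF1R, IGF2R and INSR, the receptor substrate genes IRS1 and IRS2, and the binding protein genes IGFBP2, IGFBP3, IGFBP4, IGFBP5 and IGFBP6. They were taken as all probes whose annotated symbol is one of these 10 names, which gave 12 probes (2 each for IGFBP3 and IGFBP5) among the 20045 genes that single-symbol probes of the chip name. Expression was measured on Illumina beadchips in SKNMC, TC32, TC71 and RDES, each an established line labelled Ewing sarcoma, a tumour of bone and soft tissue. In every line, 3 samples had received pladienolide B (PlaB) at 5 nM for 24 h and 3 had received DMSO vehicle at 0.1% for 24 h, which makes 8 groups and 24 arrays. PlaB is a macrolide that blocks splicing of pre-mRNA by binding SF3b, a part of the spliceosome. All groups were grown in the same serum-containing medium, and the treatment protocol calls the controls untreated where the sample labels name DMSO. The comparisons ask how much of each IGF gene a line carried with vehicle, and how PlaB changed it in that line. The labels do not state that replicate samples came from independent cultures, and the spread that the p-values rest on may therefore be technical.

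IGF1 and IGF2 signal through IGF1R, a receptor tyrosine kinase, and insulin does so mainly through the related INSR. The activated receptors phosphorylate the docking proteins IRS1 and IRS2, which recruit PI3K and GRB2 and so start the AKT, mTOR and RAS-ERK branches. IGF2R carries no kinase and takes IGF2 to the lysosome. The IGFBPs are secreted proteins that hold the ligands in the extracellular fluid and can block or prolong their action, until proteases such as PAPPA cut them. In Ewing sarcoma, IGF1R signalling is known as a survival and growth pathway that the EWS-FLI1 fusion protein needs to transform cells, and IGFBP3 as a gene that the fusion represses.

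The arrays carried the marks of the labelled cells. CD99, NKX2-2, STEAP1, PRKCB, FCGRT and CCND1 were detected on 24 of 24 arrays, and FLI1 on 4. Among markers of other cell types, the leukocyte gene PTPRC, the T cell gene CD3E and the epithelial cadherin CDH1 were each detected on 1 array, and the endothelial genes VWF and CDH5 and the muscle gene MYOD1 on 0. Others were detected on some arrays: the endothelial ESAM on 11 (4.33 to 5.74 on PlaB arrays and 4.11 to 4.55 on vehicle arrays), PECAM1 and CLDN5 on 3 each, the epithelial KRT8 on 10, EPCAM on 8 and CLDN7 on 5, the leukocyte gene CORO1A on 9, and the muscle genes MYOG and DES on 4 and 2. The liver gene ALB was detected on 23 arrays, with levels of 5.11 to 5.76 on PlaB arrays and 4.28 to 4.96 on vehicle arrays, while its companions APOA1 and TTR were detected on 9 and 2. The monocyte gene CD14 was detected on 22 arrays, at 4.91 to 6.15 on PlaB arrays and 4.32 to 5.10 on vehicle arrays. The B cell gene CD79A was detected on 21, at 4.38 to 7.46 on PlaB arrays and 4.31 to 6.59 on vehicle arrays. The keratin gene KRT18 was detected on 20, at 4.32 to 6.72 on PlaB arrays and 4.44 to 5.93 on vehicle arrays. PlaB arrays detected fewer probes than vehicle arrays, with group means of 14654 ± 726 and 16627 ± 169 in SKNMC, 14842 ± 269 and 16871 ± 478 in TC32, 16427 ± 570 and 17755 ± 920 in TC71, and 16078 ± 267 and 17402 ± 318 in RDES (SD, n = 3 each). The part of these differences in the results was not tested.

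Levels are log2 intensities after background correction, with an offset of 16 added before the logarithm, so that a probe without signal lies just above 4 and changes of dim probes are understated. Levels of different probes depend on probe chemistry and are not set against each other. A probe was called detected on an array where its detection p was under 0.05, and it was tested if it was detected on all 3 arrays of at least 1 group. This held for 10 of the 12 probes, which stand for 9 of the 10 genes. The probes of IGF2R, IRS1, IRS2, IGFBP2 and IGFBP4 were detected on 24 of 24 arrays. IGFBP6 was detected on 23 arrays, and the IGFBP5 probes ILMN_1750324 and ILMN_2132982 on 22 and 17. IGF1R and INSR were each detected on 7 arrays, and the IGFBP3 probes ILMN_1746085 and ILMN_2396875 on 9 and 7. INSR and the IGFBP3 probe ILMN_1746085 were not tested. The INSR probe lay between 4.11 and 4.57 on PlaB arrays and between 4.12 and 4.54 on vehicle arrays, at the level of probes without signal.

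**Figure D1:**
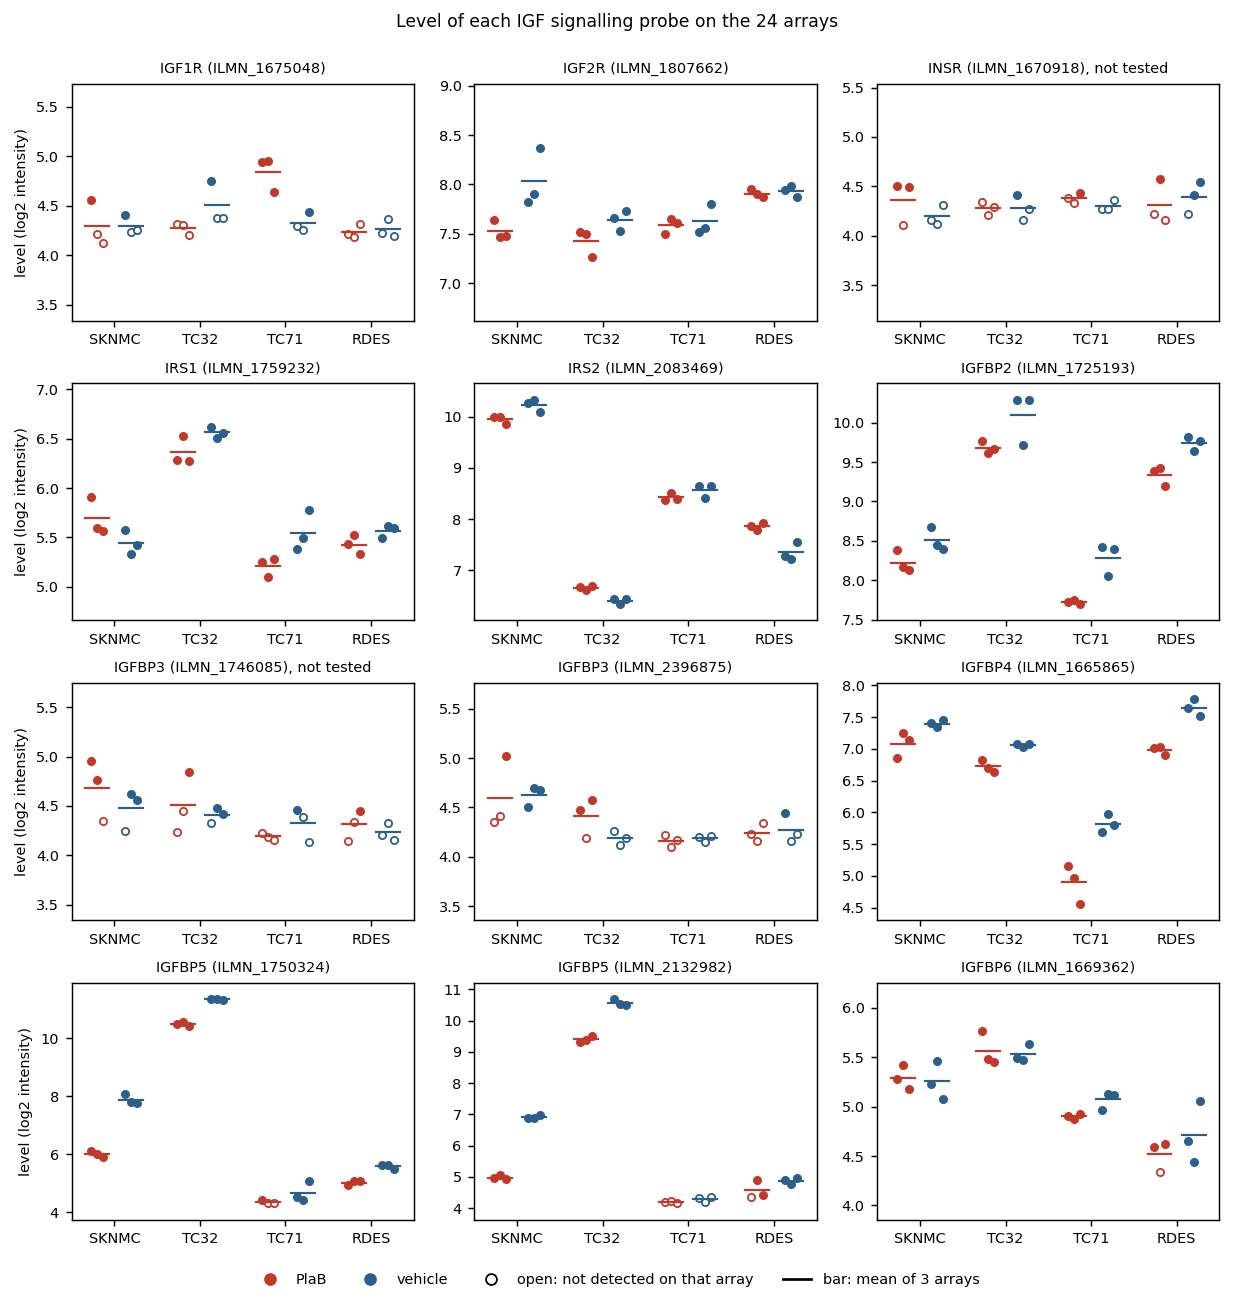
Level of the 12 probes on each array (log2 intensity; PlaB in red left of vehicle in blue, 4 lines along the x axis), with filled points where the probe was detected, open points where it was not, and a bar at the mean of 3 arrays. IGFBP5 spans 4.30 to 11.35 across arrays (probe ILMN_1750324), while IGF1R, INSR and IGFBP3 lie close to 4 on most arrays.

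With vehicle, the lines differed most in IGFBP5 and IRS2. A moderated F-test called a difference in vehicle level between lines for 8 of the 9 tested genes, where 73.4% of all tested probes were called, so this count alone does not set the IGF genes apart. A call between every one of the 6 pairs of lines was rarer, at 3.93% of probes, and was met by 2 of the 9 genes, IRS2 and IGFBP5. Of the 9 genes, 7 differed between SKNMC and TC32, where 45.2% of all tested probes did, 5 between SKNMC and TC71 (49.5%), 5 between SKNMC and RDES (44.7%), 6 between TC32 and TC71 (45.8%), 7 between TC32 and RDES (42.5%) and 6 between TC71 and RDES (46.7%). IGFBP3 is in each count with SKNMC. It passed the detection filter only through SKNMC with vehicle, where it was high, so those counts follow in part from the filter.

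IGFBP5, the most conserved of the binding proteins and one that also binds extracellular matrix, stood highest in TC32. Its brighter probe, ILMN_1750324, read 11.34, 11.35 and 11.33 on TC32 vehicle arrays and 8.06, 7.80 and 7.77 on SKNMC vehicle arrays. RDES vehicle arrays read 5.63, 5.63 and 5.47, and TC71 vehicle arrays 4.52, 4.42 and 5.06. The ranges of the 4 lines did not overlap. TC32 exceeded TC71 by 6.68 ± 0.12 on the log2 scale (SE; 102-fold; adjusted p = 1.859e-27), and the smallest step of the order, TC71 minus RDES, was -0.91 ± 0.12 (adjusted p = 2.566e-07). The dimmer probe, ILMN_2132982, gave the same order of lines. It was not detected on any TC71 vehicle array, and TC32 was at least 73.2-fold, SKNMC at least 5.85-fold and RDES at least 1.42-fold above TC71 by that probe. These are bounds against the lowest signal of detected probes on the TC71 arrays.

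IRS2, the substrate that couples the insulin and IGF receptors to PI3K in many tissues, had another order. Vehicle arrays read 10.27, 10.33 and 10.09 in SKNMC, 8.64, 8.41 and 8.65 in TC71, 7.27, 7.22 and 7.56 in RDES, and 6.43, 6.34 and 6.43 in TC32. No array of one line reached the range of another. SKNMC stood 3.83 ± 0.11 above TC32 (14.2-fold; adjusted p = 3.034e-23), and the closest pair was TC32 minus RDES at -0.95 ± 0.11 (adjusted p = 9.132e-09). IRS1, the other main substrate, was highest where IRS2 was lowest. It read 6.62, 6.51 and 6.56 in TC32 vehicle samples and 5.33 to 5.78 on the 9 vehicle arrays of the other lines. TC32 was 1.12 ± 0.12 above SKNMC, 1.02 ± 0.12 above TC71 and 0.99 ± 0.12 above RDES, and the 3 other lines could not be ordered (adjusted p 0.4186 to 0.906).

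The remaining vehicle differences were smaller. IGFBP2, a binding protein with preference for IGF2, averaged 10.10 ± 0.33 in TC32, 9.74 ± 0.09 in RDES, 8.51 ± 0.15 in SKNMC and 8.29 ± 0.21 in TC71 (SD, n = 3 each), and SKNMC and TC71 did not differ beyond their spread (difference 0.22, 95% interval -0.05 to 0.48, adjusted p = 0.1744). The step between TC32 and RDES was 0.36 and lost its call without TC32 vehicle replicate 1 (0.27, adjusted p = 0.15), TC32 vehicle replicate 3 or RDES vehicle replicate 2. IGFBP4, mostly an inhibitor of IGF action, averaged 7.65 ± 0.14 in RDES, 7.40 ± 0.06 in SKNMC, 7.06 ± 0.02 in TC32 and 5.82 ± 0.15 in TC71. RDES and SKNMC were not separated (SKNMC minus RDES -0.25, adjusted p = 0.1084), while TC71 lay below each other line. The step from SKNMC to TC32 was 0.33 (adjusted p = 0.03043) and was not called without any 1 of 5 of the 6 arrays concerned (adjusted p up to 0.087).

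IGF2R read 7.82, 7.90 and 8.37 in SKNMC vehicle samples and averaged 7.93 ± 0.05 in RDES, 7.64 ± 0.10 in TC32 and 7.63 ± 0.15 in TC71. Its calls for SKNMC over TC32 and over TC71 (0.39 and 0.40) rested on SKNMC vehicle replicate 3, the array at 8.37, and without it they were 0.22 and 0.23 (adjusted p = 0.13 and 0.10). IGFBP6, a binding protein with strong preference for IGF2, averaged 5.53 ± 0.09 in TC32, 5.25 ± 0.19 in SKNMC, 5.07 ± 0.09 in TC71 and 4.71 ± 0.32 in RDES. SKNMC was not separated from TC32 or TC71, and TC71 exceeded RDES by 0.36, a call that was lost without RDES vehicle replicate 2 (0.22, adjusted p = 0.22) or replicate 1, or without TC71 vehicle replicate 2 or 3.

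IGFBP3, the main IGF carrier of serum, was close to the detection limit. Its probe ILMN_2396875 read 4.50, 4.70 and 4.68 in SKNMC vehicle samples, the only group in which it was detected on all 3 arrays. It was not detected on any vehicle array of TC32 or TC71, and SKNMC was at least 1.17-fold above TC32 and at least 1.19-fold above TC71. The probe was tested only through this group, in which it was high, so its call between lines and its place among the 8 genes follow in part from the detection filter. The difference between lines was no longer called without SKNMC vehicle replicate 2 or replicate 3 (adjusted p up to 0.06523). IGF1R was the gene without a called difference between vehicle levels (adjusted p = 0.2522). Its group means lay between 4.26 and 4.50, and it was detected on 3 of the 12 vehicle arrays.

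With PlaB, most called changes of IGF genes were falls, and IGFBP4 and, by its brighter probe, IGFBP5 fell in every line. In SKNMC, 4 of the 9 tested genes fell and 0 rose, where 52.8% of all tested probes were called (24.9% higher and 27.9% lower), and 1 gene, IRS1, was higher at an unadjusted p under 0.05 in limma. In TC32, 3 fell and 1 rose (background 40.9%, with 19.3% higher and 21.6% lower), in TC71 4 fell and 1 rose (43.6%, 21.4% and 22.2%), and in RDES 3 fell and 1 rose (39.7%, 19.5% and 20.2%). The rise in TC71 was that of IGF1R, which passed the detection filter only through TC71 with PlaB, where it was high. In the mean of the 4 lines, 4 fell, 0 rose and 5 were not called, where 65.6% of tested probes were called (30.9% higher and 34.7% lower), and 0 were higher at an unadjusted p under 0.05. The total called was near the background in each line, and the median of the 9 genes was -0.28 in SKNMC, -0.20 in TC32, -0.17 in TC71 and -0.14 in RDES, beside medians over all tested probes of -0.02, -0.02, -0.0028 and -0.0018. The centre of scale matters here. Over all tested probes the median of the mean response was -0.02 with quantile normalization, -0.14 with median centring and 0.14 when arrays were centred on probes detected throughout, and the IGF probes called in the mean then numbered 0 higher and 5 lower, 0 and 7, or 3 and 5. The probes detected throughout are those detected on all 24 arrays. The falls of IGFBP2, IGFBP4 and IGFBP5 in the mean were called under each of these scalings. Less RNA of a gene per cell and fewer cells that express it cannot be told apart in bulk RNA.

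**Figure D2:**
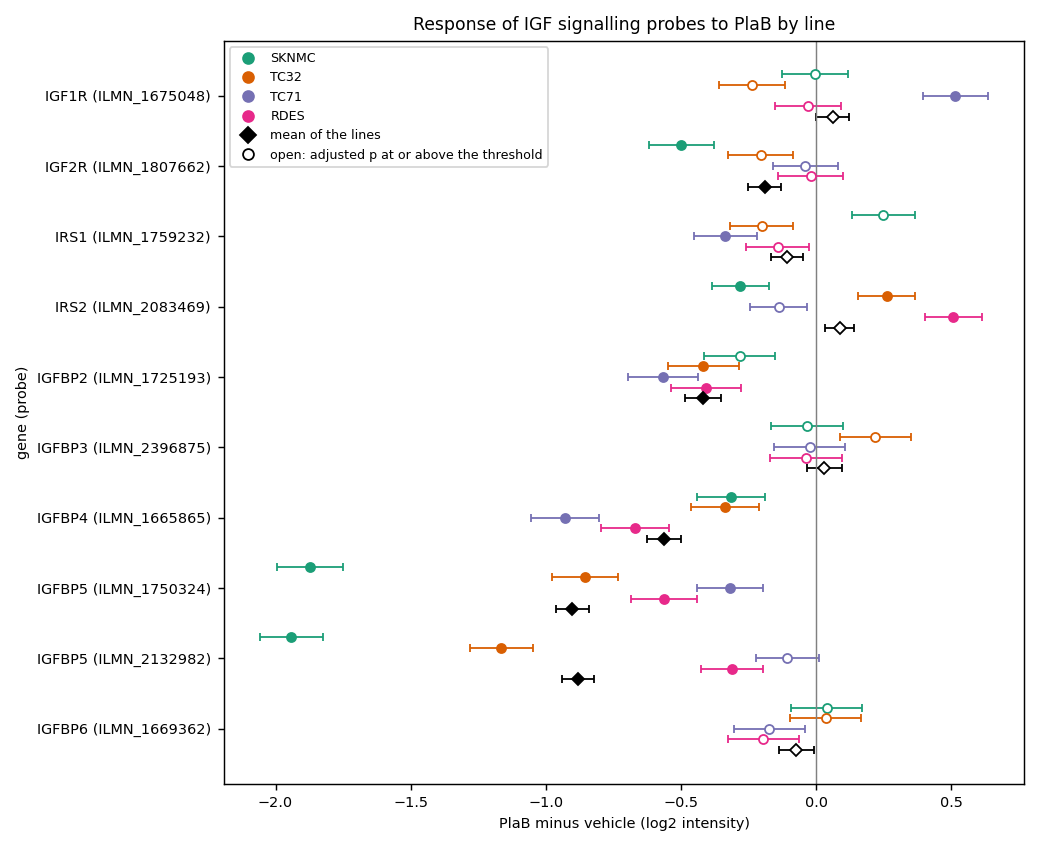
PlaB minus vehicle (log2 intensity, x axis) for each tested probe (y axis) in SKNMC, TC32, TC71 and RDES and in the mean of the lines, with bars of 1 standard error and filled symbols where the adjusted p was under 0.05. IGFBP4 and IGFBP5 (ILMN_1750324) lie left of 0 in each line, while IRS2 lies left of it in SKNMC and right of it in TC32 and RDES.

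IGFBP5 had the largest fall among the tested binding protein genes in SKNMC, in TC32 and in the mean of the lines, and IGFBP4 in TC71 and RDES, without a test between genes. In TC71 the IGFBP5 vehicle mean, 4.67, was too close to the level of probes without signal to show the IGFBP4 fall of 0.93. In SKNMC the IGFBP5 probe ILMN_1750324 read 6.09, 6.01 and 5.91 with PlaB, against 8.06, 7.80 and 7.77 with vehicle. In TC32 it read 10.48, 10.55 and 10.43 with PlaB, against 11.34, 11.35 and 11.33 with vehicle. In RDES it read 4.93, 5.06 and 5.06 with PlaB, against 5.63, 5.63 and 5.47 with vehicle. In these 3 lines no PlaB array reached the vehicle range. IGFBP5 fell by 1.87 ± 0.12 in SKNMC (SE; 3.66-fold lower; adjusted p = 1.098e-13), by 0.85 ± 0.12 in TC32 (1.81-fold lower; adjusted p = 1.232e-06) and by 0.56 ± 0.12 in RDES (1.48-fold lower; adjusted p = 0.0004104).

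In TC71 the same probe read 4.43, 4.31 and 4.30 with PlaB, against 4.52, 4.42 and 5.06 with vehicle, with 1 of 3 PlaB arrays detecting it. The groups overlapped there, and the fall of 0.32 (adjusted p = 0.03522) shrank to 0.12 without TC71 vehicle replicate 3 (adjusted p = 0.43) and was also not called without TC71 PlaB replicate 2 or 3. The probe ILMN_2132982 fell by 1.94 ± 0.12 in SKNMC and by 1.16 ± 0.12 in TC32, stood at -0.11 in TC71 (adjusted p = 0.5013), and was at -0.31 in RDES, where it was called (adjusted p = 0.0333) but not without RDES PlaB replicate 1 (-0.20, adjusted p = 0.22), RDES PlaB replicate 3, or RDES vehicle replicate 1 or 3. Both probes gave close means of the lines, at -0.90 ± 0.06 and -0.88 ± 0.06. The order of the falls did not follow the order of the vehicle levels, since TC32 had the highest level and SKNMC the largest fall. This depended on the processing for ILMN_2132982, whose fall was not larger in SKNMC than in TC32 without background correction.

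IGFBP4 was the other gene that fell in each of the 4 lines, a pattern that 8.5% of all tested probes showed and 2 of the 9 IGF genes. In TC71 it read 5.16, 4.97 and 4.56 with PlaB, against 5.69, 5.98 and 5.80 with vehicle. In RDES it read 7.01, 7.03 and 6.90 with PlaB, against 7.65, 7.78 and 7.51 with vehicle. The fall was 0.93 ± 0.13 in TC71 (1.90-fold lower; adjusted p = 4.544e-07) and 0.67 ± 0.13 in RDES (1.59-fold lower; adjusted p = 7.402e-05). In SKNMC it read 6.86, 7.25 and 7.14 with PlaB, against 7.40, 7.34 and 7.45 with vehicle, and in TC32 6.83, 6.70 and 6.64 with PlaB, against 7.08, 7.03 and 7.08 with vehicle. The groups did not overlap in any line. The smaller falls, 0.31 ± 0.13 in SKNMC and 0.34 ± 0.13 in TC32, rested on single arrays. The SKNMC call was lost without SKNMC PlaB replicate 1 (-0.20, adjusted p = 0.23) or SKNMC vehicle replicate 1 or 3, and the TC32 call without any TC32 array but PlaB replicate 1 (adjusted p up to 0.10). The mean over lines was -0.56 ± 0.06 (adjusted p = 3.804e-09).

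IGFBP4, and IGFBP5 by its brighter probe alone, were called lower in every line. The start regions of these 2 genes are shown for their core promoter letters. Each runs from 100 bases before the annotated start to 20 bases from it, 5′ to 3′ on the strand of the gene (RefSeq, GRCh38.p14), and capitals mark a TATA-like hexamer that begins at position -29 in both. IGFBP5 is at chr2:216695530-216695649 on the minus strand, next to IGFBP2 in the gene order of chromosome 2, and IGFBP4 is at chr17:40443350-40443469 on the plus strand.
IGFBP5: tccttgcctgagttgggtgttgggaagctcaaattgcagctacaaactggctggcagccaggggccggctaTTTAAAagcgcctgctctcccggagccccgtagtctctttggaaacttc
IGFBP4: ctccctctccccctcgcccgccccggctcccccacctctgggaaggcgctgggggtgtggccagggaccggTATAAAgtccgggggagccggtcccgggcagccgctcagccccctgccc

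Among the 35116 RefSeq windows from 250 bases before to 50 after a start, TTTAAA was found on either strand in 12.2% and TATAAA in 11.5%. Each of these was found in the windows of 1 of the 10 IGF genes, TTTAAA in IGFBP5 and TATAAA in IGFBP4. GGGCGG, the core of an SP1 motif, was found in 45% of all windows and in windows of 9 of the 10 genes, IGFBP5 being the exception, and CACGTG, an E-box, in 7.26% and in windows of IGF2R and IRS1. TTTAAA and CACGTG read the same on both strands, and matches of TATAAA and TTTAAA were counted separately. The matches are a description of the letters and were not tested against the response.

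IGFBP2, which neighbours IGFBP5 on chromosome 2, fell in 3 lines. In TC71 it read 7.73, 7.75 and 7.70 with PlaB, against 8.42, 8.05 and 8.40 with vehicle, with no overlap. In RDES it read 9.38, 9.42 and 9.19 with PlaB, against 9.82, 9.64 and 9.76 with vehicle, also without overlap. In TC32 it read 9.77, 9.61 and 9.66 with PlaB, against 10.29, 9.72 and 10.29 with vehicle, where the groups overlapped. IGFBP2 fell by 0.57 ± 0.13 in TC71 (1.48-fold lower; adjusted p = 0.0006776), by 0.42 ± 0.13 in TC32 (adjusted p = 0.01048) and by 0.41 ± 0.13 in RDES (adjusted p = 0.01295). The TC32 call was lost without TC32 vehicle replicate 1 (-0.32, adjusted p = 0.081) or replicate 3, and the RDES call without RDES PlaB replicate 3 (-0.33, adjusted p = 0.074) or RDES vehicle replicate 1. In SKNMC the difference was -0.28 (95% interval -0.55 to -0.02; adjusted p = 0.06921). A difference in response between lines was not called (adjusted p = 0.5936), and the mean of the lines was -0.42 ± 0.07.

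IGFBP6 and IGFBP3 were not called in any line. IGFBP6 differed by 0.04 in SKNMC, 0.04 in TC32, -0.17 in TC71 and -0.20 in RDES, with 95% intervals that reached from -0.46 to 0.31 over the lines. IGFBP3 (ILMN_2396875) differed by -0.03, 0.22, -0.02 and -0.04 in the same lines. It was detected on 3 of the 12 PlaB arrays, so a change below the detection limit could not be measured.

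Of the receptors, IGF2R fell in SKNMC and IGF1R rose in TC71. IGF2R read 7.64, 7.47 and 7.48 in SKNMC with PlaB, against 7.82, 7.90 and 8.37 with vehicle, and the groups did not overlap. The fall was 0.50 ± 0.12 (1.41-fold lower; adjusted p = 0.0007494), and 0.33 (adjusted p = 0.01806) without SKNMC vehicle replicate 3. In TC32, TC71 and RDES the differences were -0.20, -0.04 and -0.02, none of them called, and a difference between lines was not called by the F-test (adjusted p = 0.06497). The SKNMC response was below that of TC71 in the pairwise comparison (SKNMC minus TC71 -0.46 ± 0.17, adjusted p = 0.04761) and below that of RDES (-0.48 ± 0.17, adjusted p = 0.03844), and without SKNMC vehicle replicate 3 these were -0.29 and -0.31, not called. The mean of the lines was -0.19 ± 0.06 (adjusted p = 0.006223).

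IGF1R read 4.94, 4.95 and 4.64 in TC71 with PlaB, against 4.29, 4.25 and 4.44 with vehicle. All 3 PlaB arrays and 1 of 3 vehicle arrays detected it, and the groups did not overlap. The rise was 0.52 ± 0.12 (adjusted p = 0.0008363). TC71 with PlaB was the only group that detected IGF1R on all 3 arrays, so the probe entered the test through the group in which it was high, and the rise is no independent support for a difference. With all probes tested and no detection filter, it was still called. As most vehicle arrays did not detect the gene, the size of the rise is uncertain, and it lay between 0.17 and 0.70 over the alternative settings. In SKNMC 1 of 3 PlaB and 1 of 3 vehicle arrays detected the gene, in TC32 0 and 1, and in RDES 0 and 0. The differences there were -0.0045, -0.24 and -0.03, not called, although centring on probes detected throughout put SKNMC at 0.37 with a call. The response of TC71 exceeded that of TC32 by 0.75 on the log2 scale (TC32 minus TC71 -0.75 ± 0.17; adjusted p = 0.002646). Over the 8 group means of 10881 compared genes, those most like IGF1R were CFAP70 (Pearson r 0.92), FARP2 (0.898) and MANEA (0.894), and the least alike were ZNF606 (-0.94), STIMATE (-0.901) and METTL1 (-0.889). CFAP70 had its highest group mean, 5.48, in TC71 with PlaB, against 4.40 in TC71 with vehicle. IGF1R was highest in the same group, so a ranking by likeness to it favours such genes, and the shared peak follows from the selection. These correlations describe 8 means that share lines and arrays and carry no test.

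The substrate IRS2 was the 1 IGF gene called in both directions, as were 4.47% of tested probes. In RDES it read 7.87, 7.79 and 7.92 with PlaB, against 7.27, 7.22 and 7.56 with vehicle. In TC32 it read 6.68, 6.61 and 6.70 with PlaB, against 6.43, 6.34 and 6.43 with vehicle. In SKNMC it read 10.00, 10.00 and 9.86 with PlaB, against 10.27, 10.33 and 10.09 with vehicle. In none of these lines did the groups overlap, and the PlaB arrays were the higher ones in RDES and TC32 and the lower ones in SKNMC. IRS2 rose by 0.51 ± 0.11 in RDES (1.42-fold; adjusted p = 0.0002309) and by 0.26 ± 0.11 in TC32 (adjusted p = 0.04631), and it fell by 0.28 ± 0.11 in SKNMC (adjusted p = 0.02513). The RDES rise was called in every alternative setting. The TC32 rise lost its call without any 1 of the 6 TC32 arrays (adjusted p up to 0.1342) and was -0.14 with median centring, and the SKNMC difference was 0.036 when arrays were centred on probes detected throughout. The SKNMC call was also lost without SKNMC vehicle replicate 1 or 2 or SKNMC PlaB replicate 3 (adjusted p up to 0.11). In TC71 the difference was -0.14 (adjusted p = 0.3084). The 2 lines with the lowest IRS2 levels with vehicle were those in which the gene rose. The vehicle arrays enter both the level and the response, and a link between them was not tested.

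IRS1 fell in TC71, where it read 5.25, 5.10 and 5.28 with PlaB, against 5.38, 5.49 and 5.78 with vehicle, without overlap. The fall was 0.34 ± 0.12 (1.26-fold lower; adjusted p = 0.01973), and 0.22 (adjusted p = 0.17) without TC71 vehicle replicate 3, and the call was also lost without TC71 PlaB replicate 2. In SKNMC IRS1 differed by 0.25 (95% interval 0.01 to 0.49; adjusted p = 0.07356), and in TC32 and RDES by -0.20 and -0.14. Median centring put the SKNMC value at -0.17.

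Whether the response itself differed between lines was tested with a moderated F-test over the 4 responses. It called 5 of the 9 genes, where 42.4% of tested probes were called: IGF1R (adjusted p = 0.004884), IRS1 (0.02557), IRS2 (0.0002735), IGFBP4 (0.01448) and IGFBP5 (2.032e-07, and 1.704e-09 for ILMN_2132982). IGF1R had passed the detection filter only through TC71 with PlaB, the group in which it was high, so its place in this count follows in part from the filter. Of the 9 genes, 3 responded differently in SKNMC and TC32, where 27.3% of all tested probes did, 5 in SKNMC and TC71 (23.6%), 3 in SKNMC and RDES (23.7%), 3 in TC32 and TC71 (16.4%), 0 in TC32 and RDES (11.3%) and 2 in TC71 and RDES (10.6%). IGF1R is in each count with TC71, so those counts too follow in part from the filter. For TC32 and RDES limma also gave 0 genes at an unadjusted p under 0.05, although the IGFBP5 probe ILMN_2132982, which does not enter this count, differed by -0.85 ± 0.16 (TC32 minus RDES; adjusted p = 0.0007696). Between pairs of lines, the fall of IGFBP5 (ILMN_1750324) was larger in SKNMC than in TC32 by 1.02 ± 0.17, than in TC71 by 1.55 ± 0.17 and than in RDES by 1.31 ± 0.17 (adjusted p 1.955e-07 to 5.538e-05). Its vehicle means were 4.67 in TC71 and 5.58 in RDES, too close to the level of probes without signal for the SKNMC fall of 1.87 to be measured there. Likewise ILMN_2132982, at 4.87 in RDES with vehicle, could not have shown the TC32 fall of 1.16 in RDES. The fall of IGFBP4 was larger in TC71 than in SKNMC by 0.62 ± 0.18 (adjusted p = 0.01198) and than in TC32 by 0.59 ± 0.18 (adjusted p = 0.02119). Neither of these was called without TC71 PlaB replicate 3 (0.45 and 0.42) or with median centring (0.46 and 0.42), and the comparison with TC32 was also not called without TC32 PlaB replicate 1 or TC71 vehicle replicate 2. The fall of IGFBP4 in TC71 was not separated from that in RDES (TC71 minus RDES -0.26 ± 0.18, adjusted p = 0.4047). The IRS2 response of SKNMC was below that of RDES by 0.79 (SKNMC minus RDES -0.79 ± 0.15; adjusted p = 0.0002294) and below that of TC32 (-0.54 ± 0.15; adjusted p = 0.006886), the second of which was not called with median centring (-0.20) or when arrays were centred on probes detected throughout (-0.18).

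The genes most like IGFBP5 over the 8 group means, a measure added after its values were seen, were TMEM100 (Pearson r 0.981), CAVIN3 (0.978) and CRACR2B (0.975), and the least alike were PLRG1 (-0.979), GTPBP6 (-0.952) and MCM3AP (-0.95). The means carry the levels of the lines, so likeness does not show a like response to PlaB. In TC32 CAVIN3 averaged 4.75 with PlaB and 4.74 with vehicle, while TMEM100 and CRACR2B were lower with PlaB. No test was made.

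The ligands were at or below the detection limit. The 3 IGF2 probes and the INS probe were each detected on at most 1 of the 24 arrays. Of the IGF1 probes, ILMN_2056087 was detected on 0 arrays and ILMN_1709613 on 0 of 12 PlaB arrays and 10 of 12 vehicle arrays. ILMN_1709613 read 4.17, 4.26 and 4.26 in SKNMC with PlaB, against 4.73, 4.53 and 4.87 with vehicle. In TC71 it read 4.19, 4.38 and 4.20 with PlaB, against 4.62, 4.88 and 5.00 with vehicle. The groups did not overlap in either line. IGF1 was at least 1.17-fold lower with PlaB in SKNMC and at least 1.34-fold lower in TC71, bounds set by the detection limit of the PlaB arrays. The limma test used the values as measured, at -0.48 in SKNMC (adjusted p = 0.0006479) and -0.57 in TC71 (adjusted p = 0.0001124). The probe passed the detection filter only through vehicle groups, in which it was high, so these calls are no independent support for a fall. The SKNMC difference was not called with centring on probes detected throughout. In RDES the 3 vehicle arrays, at 4.46, 4.43 and 4.39, all detected it and lay above the PlaB arrays, but the difference was not called (adjusted p = 0.08693). In TC32 it was detected on 1 vehicle array. In TC32 no bound could be given. PlaB arrays also detected fewer probes in all, as given above, and the part of this in the loss of IGF1 detection was not tested.

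PAPPA, the protease that cuts IGFBP4 and IGFBP5, fell in the 2 lines with the higher vehicle levels. In SKNMC it read 4.45, 4.48 and 4.47 with PlaB, where 1 of 3 arrays detected it, against 5.70, 5.92 and 5.98 with vehicle, and in TC32 5.11, 5.19 and 4.91 with PlaB, against 5.76, 5.98 and 5.63 with vehicle. The groups did not overlap in either line. PAPPA fell by 1.40 ± 0.13 in SKNMC (adjusted p = 1.419e-10) and by 0.72 ± 0.13 in TC32 (adjusted p = 3.209e-05), and stood at -0.04 in TC71 and 0.11 in RDES, not called. The response differed between lines (F-test adjusted p = 3.694e-07). Vehicle arrays read 4.31, 4.56 and 4.15 in TC71 and 4.72, 4.47 and 4.74 in RDES, close to the level of probes without signal. Falls as large as that in SKNMC could not have been measured in TC71 or RDES, and this limits the comparison between lines. STC2, a secreted inhibitor of PAPPA, rose in all 4 lines.

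In SKNMC, STC2 read 7.23, 7.45 and 6.94 with PlaB, against 6.19, 6.47 and 6.48 with vehicle, and in TC32 6.13, 6.24 and 6.15 with PlaB, against 5.45, 5.39 and 5.52 with vehicle. No PlaB array fell into the vehicle range in any line. The rises were 0.82 ± 0.12 in SKNMC, 0.72 ± 0.12 in TC32, 0.48 ± 0.12 in TC71 and 0.47 ± 0.12 in RDES (adjusted p 9.969e-07 to 0.002159), and they were called in SKNMC but not in the other lines under median centring. The related STC1 differed between lines (F-test adjusted p = 3.353e-05). It fell by 0.73 in TC32 and by 0.60 in TC71, rose by 0.55 in RDES, and was not detected on any SKNMC array, so its called mean of -0.20 ± 0.07 describes no single line. MMP9, a matrix protease, was detected on 0 of 12 PlaB arrays and on 5 vehicle arrays, 3 of TC71 and 2 of TC32, so its called mean has no measured size. Its probe passed the detection filter only through TC71 with vehicle, where it was high, so the call is no independent support for a fall. With arrays centred on probes detected throughout, neither STC1 nor MMP9 was called in the mean.

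**Figure D3:**
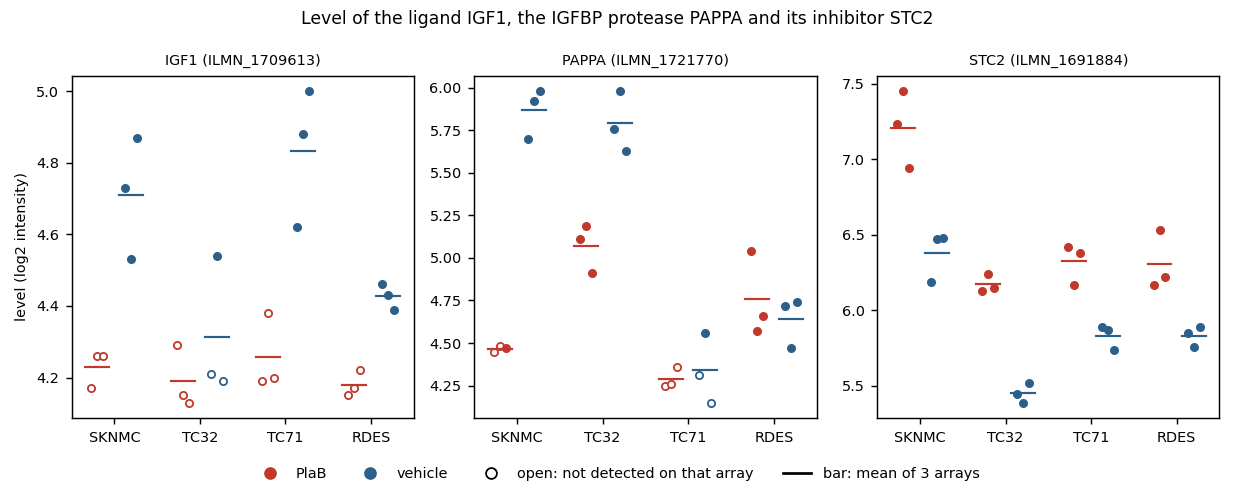
Level (log2 intensity, y axis) of IGF1 (ILMN_1709613), PAPPA (ILMN_1721770) and STC2 (ILMN_1691884) on each array, PlaB in red left of vehicle in blue for each line, with open points where the probe was not detected and bars at the mean of 3 arrays. IGF1 was detected on 0 of 12 PlaB arrays, and STC2 lay higher with PlaB in each line.

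Of 118 further genes of the pathway in 9 lists, 106 had a probe, 76 were tested and the other 12 were not analysed here. In the mean of the 4 lines 28 rose, 22 fell and 26 were not called, which is 50 of 76 beside 65.6% of all tested probes, and the median was 0.02 beside -0.02 over all probes. The split moved with the scaling, to 18 higher and 38 lower with median centring and to 37 higher and 15 lower with centring on probes detected throughout. By line, 25 of the 76 rose and 19 fell in SKNMC, 20 and 13 in TC32, 23 and 15 in TC71, and 22 and 8 in RDES. Of all tested probes, 24.9% rose and 27.9% fell in SKNMC, and 19.3% and 21.6% did so in TC32. The shares were 21.4% and 22.2% in TC71 and 19.5% and 20.2% in RDES. The list counts below are for the mean of the lines, where 30.9% of all tested probes rose and 34.7% fell. No list was tested against these shares.

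Directly below the receptors, 7 of 18 tested adaptors and negative regulators rose and 4 fell in the mean. SOS1, the exchange factor that loads RAS, rose by 0.99 ± 0.06 log2 (adjusted p = 1.012e-14), the adaptor CRKL by 0.83 ± 0.05, GRB2, which brings SOS1 to IRS proteins, by 0.74 ± 0.07, and SH2B1, an adaptor of the insulin receptor, by 0.66 ± 0.07. These 4 rises held under each scaling. GRB10, an inhibitor of the insulin and IGF1 receptors named here after its values were seen, was called lower by its brightest probe at -0.25 and higher by ILMN_1652662 at 0.22, so its probes disagreed.

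In the PI3K and AKT list 3 of 10 rose and 1 fell. GSK3B, a kinase that AKT inhibits, rose by 0.46 ± 0.06 and TRIB3, a pseudokinase that binds AKT, by 0.40 ± 0.05, while AKT1 fell by 0.26 ± 0.05. TRIB3 stood at -0.04 in SKNMC, and AKT1 was called in RDES (-0.54) but in no other line. The TRIB3 call was lost with median centring (0.096), and PHLPP2, an AKT phosphatase at 0.16 ± 0.06, turned to -0.03 there. In the mTOR list 5 of 15 rose and 5 fell. ULK1, the autophagy kinase that mTORC1 restrains, rose by 1.31 ± 0.07 (adjusted p = 8.514e-17), and the TSC complex gene TSC1 by 0.78 ± 0.06, with 0.67 and 0.097 for its other probes ILMN_2246510 and ILMN_1758378, of which the second was not called. MTOR itself fell by 0.94 ± 0.06 (adjusted p = 8.467e-14), and MLST8, a subunit of both mTOR complexes, by 0.76 ± 0.08.

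In the RAS and ERK list 5 of 11 rose and 3 fell. MAP2K1 rose by 0.82 ± 0.06 and its paralogue MAP2K2 fell by 0.73 ± 0.07, MAPK3, the ERK1 gene, fell by 0.71 ± 0.06, and SPRED2, an inhibitor of RAS-ERK signalling, rose by 0.97 ± 0.06. Among FOXO factors and targets 5 of 10 rose and 2 fell. FOXO3, the factor that AKT keeps out of the nucleus, rose by 0.68 ± 0.06 and the repressor BCL6 by 0.54 ± 0.06. Neither was called in RDES (0.27 and 0.18), and both responses differed between lines (F-test adjusted p = 0.01797 and 0.01197). The other FOXO3 probe, ILMN_1844692, stood at 0.37 in the mean. TXNIP stood at 0.28 ± 0.06 and CCNG2 at -0.23 ± 0.06, and each was called except under 1 of the scalings, at 0.0034 with median centring for TXNIP and at -0.0052 with centring on probes detected throughout for CCNG2. By line, TXNIP was -0.14 in TC32, not called, and CCNG2 was called in SKNMC, where 0 of 3 PlaB arrays detected it.

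The remaining lists were short. Of 4 tested IGF-binding or IGFBP-related genes, 2 rose and 1 fell in the mean. CCN1, a matrix protein of the CCN family, rose by 0.45 in SKNMC, 1.19 in TC32 and 1.09 in TC71 and stood at -0.22 without a call in RDES, with a mean of 0.63 ± 0.06 and a difference between lines (F-test adjusted p = 1.917e-07). CCN2 had a mean of 0.26 ± 0.07 with -0.18 in SKNMC, not called there, and its mean was 0.014 and not called with median centring. The protease HTRA1, which carries an IGFBP-like domain, was detected only in TC32, on all 6 arrays, and fell there by 0.86 (adjusted p = 6.4e-09), so its called mean of -0.22 averages TC32 with 3 lines at background. Of the IGF2 mRNA-binding proteins, IGF2BP3 fell by 0.60 ± 0.08 and IGF2BP2 by 0.41 ± 0.06, and IGF2BP1 stood at 0.07 without a call.

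**Figure D4:**
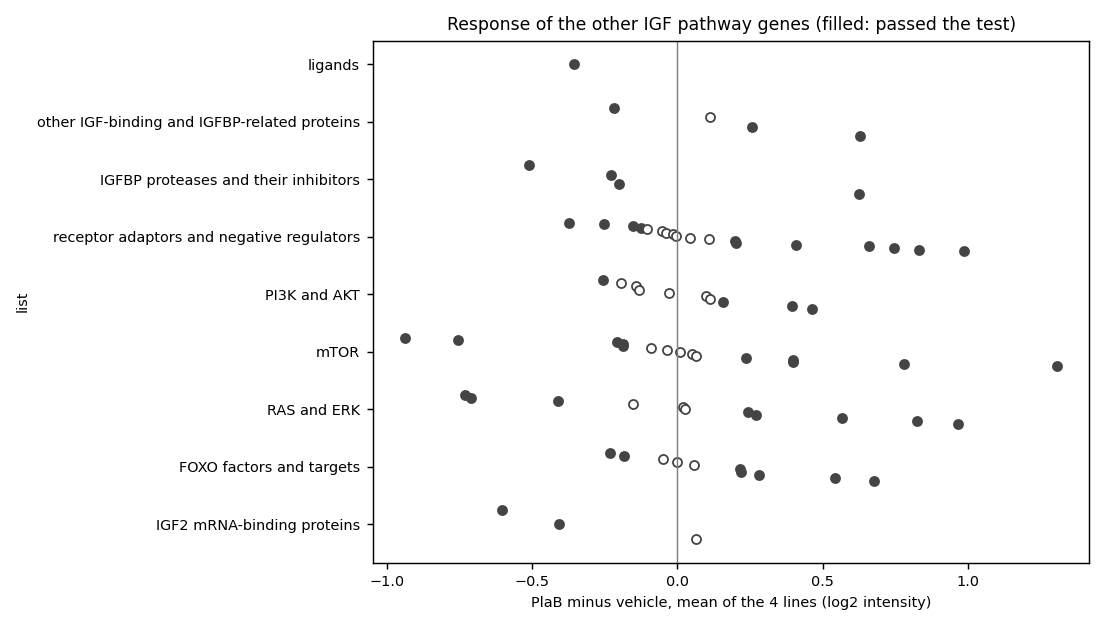
PlaB minus vehicle in the mean of the 4 lines (log2 intensity, x axis) for the 76 tested pathway genes by list (y axis), 1 point a gene, filled where the adjusted p was under 0.05. Lists from adaptors to FOXO targets hold rises and falls side by side, with ULK1 at 1.31 and MTOR at -0.94 as the ends of the range. The ligand IGF1 and MMP9 were detected on 0 PlaB arrays and HTRA1 in TC32 alone, so the positions of these points are not sizes of change.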

How the data were processed

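Total RNA of 24 samples was profiled on Illumina beadchips. The non-normalized table deposited by the authors gives, per the file headers, a probe intensity on a linear scale and a detection p-value for each array. Neither normalization nor background subtraction is recorded there. The series matrix deposited by the authors holds log2 values. It matched quantile-normalized log2 intensities within 0.03 for 99.996% of the TC32 probes, whereas SKNMC reached 36.4%, TC71 75.2% and RDES 36.4%, and was used only as an alternative for TC32. The submitters' processing notes name GenomeStudio, lumi and R 3.0.2. Neither chips nor scan batches are named in the sources used here.

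The neqc function of limma 3.58.1 (R 4.3.3) was applied to the intensities (background from the detection p-values, offset 16, quantile normalization, log2). Of 47323 probes, 17557 with detection p under 0.05 on all 3 arrays of at least 1 group were tested. Symbols came from the platform annotation (30112 probes with 1 symbol, 8 with several, 17203 with none), and the 12 IGF probes matched the RefSeq gene table through their gene identifiers. A group-means model on the 24 arrays gave PlaB minus vehicle by line and its mean, vehicle differences between lines and moderated F-tests, moderated by eBayes with 16 residual and 13.4 prior degrees of freedom. Two-sided p-values were adjusted by the Benjamini-Hochberg method across the 17557 probes and called under 0.05. The fits were tested on simulated data. Arrays of a group correlated at 0.987 to 0.994 and none were identical. The number of arrays, 3 a group, limits the precision.

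All 10 IGF genes were named, each read from its brightest tested probe, and of each pathway list up to 4 called genes with the largest mean response, the ligands by detection, and the 3 genes most and least like IGF1R. Members and lists were chosen with earlier results of these data known. Scaling, offset, filter, probe, replicate block, single-line fits and each array left out in turn were tried as alternatives. Same-numbered PlaB and vehicle samples of a line were checked for pairing, and their deviations correlated at -0.041 to 0.0535 over 12 pairs, so the numbers were not used as pairs.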

Additional observations from a re-analysis of the deposited data

Results flagged for a closer look

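The response to PlaB differed between the 4 lines, by the moderated F-test, for 5 IGF genes and for PAPPA. The adjusted p was 0.004884 for IGF1R, which rose in TC71 and was not called in the other lines. IGF1R passed the detection filter only through TC71 with PlaB, the group in which it was high, and so gives no independent support. It was 0.02557 for IRS1, which fell in TC71 and stood at 0.25 without a call in SKNMC, and 0.0002735 for IRS2, which rose in RDES and TC32 and fell in SKNMC. It was 0.01448 for IGFBP4, with its largest fall in TC71. For the IGFBP5 probes ILMN_1750324 and ILMN_2132982 it was 2.032e-07 and 1.704e-09. Both probes had the largest fall in SKNMC, but ILMN_2132982 did not without background correction. For PAPPA the adjusted p was 3.694e-07, with falls in SKNMC and TC32. Vehicle levels of IGFBP5 and PAPPA in TC71 and RDES were too low for falls as large as those in SKNMC to be measured there. Over the alternatives the adjusted p ranged from 0.001954 to 0.03139 for IGF1R, 0.01407 to 0.1586 for IRS1, 2.983e-05 to 0.01877 for IRS2, 0.003415 to 0.1725 for IGFBP4 and 1.991e-07 to 6.694e-06 for PAPPA. For the IGFBP5 probes it stayed at or below 3.694e-06. In this contrast 42.4% of all tested probes were called.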

How the results depend on the processing

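Of 10 tested IGF probes, 5 were called in each line and in the mean of the lines, 6 for a response that differed between lines, 9 for vehicle levels, and 50 for other IGF pathway genes changed by PlaB, in the mean. Centring on probes detected on all arrays called 8 probes in the mean. Leaving out 1 array at a time gave 4 to 5 probes in SKNMC, 2 to 4 in TC32, 3 to 5 in TC71, 3 to 5 in RDES, 5 to 6 in the mean, 5 to 7 for differing responses, 8 to 9 for vehicle levels and 49 to 52 pathway genes. Single values turned sign as follows. With median centring, IRS2 was -0.14 in TC32, IGFBP6 -0.35 in SKNMC and PHLPP2 -0.025 in the mean. Centred on probes detected throughout, IGF1R was 0.37 and IRS2 0.036 in SKNMC, and MMP9 was 0.0092 in the mean. Without background correction, the IGFBP5 response (ILMN_2132982) of SKNMC minus that of TC32 was 0.093. The causes were not tested. Of the other single values, 4469 kept their status, called or not called, 206 lost a call and 39 gained one. Of those that kept their status, 125 changed sign with no call on either side. With the replicate number as a block within lines, the counts were 5 in SKNMC, 4 in TC32, 5 in TC71, 4 in RDES and 5 in the mean, with 6 for differing responses and 51 pathway genes, and with the block over lines 9 for vehicle levels. Of 12 samples, 6 correlated best with their own number. IGF1R, INSR, IGFBP3 and IGF1 lie at the detection limit, so only larger changes of these genes could be measured.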
